A study of Mus musculus with 36 samples.

Results

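Basal tumor cells with Wif1 were keratin-positive cells of double-mutant submandibular glands, a major salivary gland of the mouse, that carried transcripts of Wif1, Syn3, Coch or Krt42. They were chosen by a gate on unique molecular identifiers (UMIs), the tags that count single captured transcripts. A cell passed with 2 or more UMIs of Krt14 plus Krt5, at least 1 UMI of Wif1, Syn3, Coch or Krt42, and no UMI of Bmp2, Bmp4, Dkk4, Myh11, Cnn1 or Actg2. The gate held 127 of 12603 cells from the 14 double-mutant glands, or of 23346 cells from all 26 glands profiled by Drop-seq, after cells with under 100 genes or 15% or more mitochondrial UMIs had been removed. These 127 cells are called marked basal cells here.

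Drop-seq, a droplet method for single-cell 3' transcript counting, had been run on 12 control and 14 double-mutant glands, each library holding 1 gland of a male or female mouse. Double mutants carried a gain-of-function β-catenin allele (beta-catenin GOF) and lost the BMP receptor gene Bmpr1a (Bmpr1a LOF), and both genotypes carried K14-Cre, which acts in basal epithelium, with a Cre-inducible R26-EYFP reporter on a C57BL/6 background. Glands were taken at postnatal day 40 (P40, 7 double-mutant and 6 control glands) or day 90 (P90, 7 and 6), dissociated, sorted for live single cells and fixed in methanol. CITE-seq libraries of 4 glands at about P70 and 1 bulk RNA-seq library per genotype, both of female mice, from a control at P70 and a double mutant at P100, completed the series.

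Basal cells line the outer side of salivary ducts and acini, carry the keratins Krt14 and Krt5 and the transcription factor Trp63, and give rise to duct cells, while myoepithelial cells share these keratins and add contractile proteins. Wnt signaling through β-catenin switches on target genes that include secreted inhibitors of the pathway itself. Wif1 is one of these inhibitors and binds Wnt ligands outside the cell. Krt42 is a type I keratin from the same gene cluster as Krt14, Coch encodes the secreted matrix protein cochlin, and Syn3 encodes a synapsin best known from neurons.

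The deposited tables are in mm10 (GRCm38). In the GENCODE vM21 annotation of that build, Wif1 lies at chr10:121033960-121100650 on the plus strand, Coch at chr12:51593341-51605771 on the plus strand and Krt42 at chr11:100262882-100269871 on the minus strand. Their promoters are shown because the transcripts were detected in the same gated cells, and because β-catenin acts through TCF/LEF factors with a short binding motif. Sequences come from RefSeq (GRCm38.p6), cover up to 250 bases before the RefSeq transcript start, and run 5′ to 3′ on the gene's strand. Each printed stretch stops before the GENCODE gene start. Capitals mark the TCF/LEF core CTTTGA or CTTTGT, searched on both strands.
Wif1, chr10:121033754-121033959, plus strand: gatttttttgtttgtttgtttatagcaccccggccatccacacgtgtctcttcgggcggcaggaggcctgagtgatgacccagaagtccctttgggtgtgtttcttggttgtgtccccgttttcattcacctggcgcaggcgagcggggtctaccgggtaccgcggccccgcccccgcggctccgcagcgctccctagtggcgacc
Coch, chr12:51593091-51593340, plus strand: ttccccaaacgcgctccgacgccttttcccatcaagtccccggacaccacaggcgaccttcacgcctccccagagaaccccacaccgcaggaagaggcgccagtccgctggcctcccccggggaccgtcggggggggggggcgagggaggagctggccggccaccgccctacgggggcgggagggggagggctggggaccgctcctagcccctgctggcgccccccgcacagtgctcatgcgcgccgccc
Krt42, chr11:100269952-100270201, minus strand: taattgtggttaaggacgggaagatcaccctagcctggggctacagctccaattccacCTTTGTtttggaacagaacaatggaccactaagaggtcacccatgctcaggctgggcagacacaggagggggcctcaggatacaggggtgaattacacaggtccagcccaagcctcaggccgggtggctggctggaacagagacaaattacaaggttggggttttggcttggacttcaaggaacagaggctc
Within 250 bases before the RefSeq start, 1 match was found for Krt42, at position -192, and 0 for Wif1, Coch and Krt5. A match was held by 9075 of 32851 promoters of that length, or 27.6%. Syn3 had no entry.

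Some libraries need naming first. The P40 replicate 1 gland is labelled male but held 591 UMIs of Xist and 1 UMI of Y-linked genes, and the P90 replicate 5 gland is labelled female but held 0 UMIs of Xist and 194 of Y-linked genes. In the P90 replicate 4 gland, a median of 12.7% of a cell's UMIs were ribosomal protein transcripts, the highest of the 14 glands, and the study left that gland out of its subclustering. Double-mutant libraries held 777537 to 6522928 UMIs and 606 to 1209 retained cells. No marked basal cell carried a barcode found in another library, whereas 14 barcodes were shared between libraries overall. Doublets were not called, and 3 marked cells exceeded 5000 UMIs.

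The label was checked against markers that the gate did not use. Among marked basal cells, Krt17, a basal keratin, was detected in 62.2%, Trp63 in 36.2%, Col17a1, a hemidesmosome collagen, in 35.4% and Krt15 in 18.1%. In double-mutant cells without a Krt14 or Krt5 UMI, these genes stood at 9.25 UMIs per 1000000 UMIs (CPM) or below, with UMIs summed over cells, against 406 CPM (Krt15) to 1326 CPM (Krt17) in marked cells. The cells were thus basal by genes outside the gate. The Wif1 part of the name covered 85 of the 127 cells.

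All 4 marker genes were seldom seen in the same cell, and these values describe the gate and carry no test. Wif1 was detected in 85 cells with 255 UMIs, Syn3 in 50 cells with 97 UMIs, Coch in 29 cells with 139 UMIs and Krt42 in 29 cells with 221 UMIs. Wif1 was the only marker in 45 cells, Syn3 in 25, Coch in 7 and Krt42 in 6. All 4 were present in 2 cells, and the remaining cells held 2 or 3 of them. Of the Krt42 cells 69.0% also held Wif1, and of the Coch cells 62.1% did, beside 66.9% of all marked cells. Many cells sat at the edge of the gate, with exactly 2 keratin UMIs in 47 cells and exactly 1 marker UMI in 56. A further 84 cells met every condition but had 1 keratin UMI.

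The markers were also read in cells outside the keratin threshold. Of 11763 double-mutant cells without Krt14 or Krt5 UMIs, 2.55% held a Wif1 UMI, 2.65% a Syn3 UMI, 0.918% a Coch UMI and 0.349% a Krt42 UMI, at a median of 1188 UMIs per cell against 1056 in marked cells. Of 10272 such control cells, at a median of 2134 UMIs, 1 held Wif1, 0 held Krt42 (which allows a share of up to 0.0292%) and 2.63% held Syn3. With 1 Wif1 UMI and 0 Krt42 UMIs, these control cells cannot measure free RNA of either gene in double-mutant glands. Whether the 300 keratin-free double-mutant cells with Wif1 made it or held free RNA was not tested. Their share ran from 0% in P90 replicate 7 to 9.14% in P90 replicate 4. The Syn3 share was 2.65% in one genotype and 2.63% in the other. Of 238 double-mutant basal cells with neither kind of marker, used below for comparison, 0 held any of the 4 genes by construction.

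Marker levels differed between glands. In the 4 glands with 10 or more marked cells, Wif1 stood at 1987 CPM in P40 replicate 2, 1889 in P40 replicate 6, 1767 in P90 replicate 5 and 1171 in P90 replicate 4. Krt42 stood at 2181, 1032, 4860 and 1018 CPM in the same order, from 3 of 25, 12 of 30, 3 of 12 and 7 of 16 marked cells. Coch stood at 48.5, 1305, 2504 and 1018 CPM, and its low value in P40 replicate 2 was 1 cell of 25. Across the 9 glands with 5 or more marked cells, Wif1 and Syn3 were present in all 9, Coch in 8 and Krt42 in 6.

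Syn3 needs a further measurement, because the gene spans chr10:86055125-86498896 on the minus strand and encloses Timp3, an inhibitor of matrix metalloproteinases, at chr10:86300372-86349506 on the plus strand, with 1 Syn3 exon overlapping a Timp3 exon. Of the 50 marked cells with Syn3, 49 (98.0%) also held Timp3, against 48.1% of the marked cells without Syn3. The pairing was seen in other cells too. Among double-mutant cells without Krt14 or Krt5, 90.4% of Syn3 cells held Timp3 against 9.74% of the rest, and in control cells of that kind the shares were 87.4% and 9.84%. Syn3 UMIs per 100 Timp3 UMIs were 9.48 in contractile-marked basal cells, 10.5 in cells with 1 keratin UMI, 12.6 in double-mutant and 10.9 in control cells without these keratins, and 19.4 in marked cells, where Syn3 was part of the gate. Whether reads were assigned by strand is not given in the sources used here, so reads of Syn3 and Timp3 cannot be told apart, and each main result was also computed without the 25 cells whose only marker was Syn3.

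**Figure D1:**
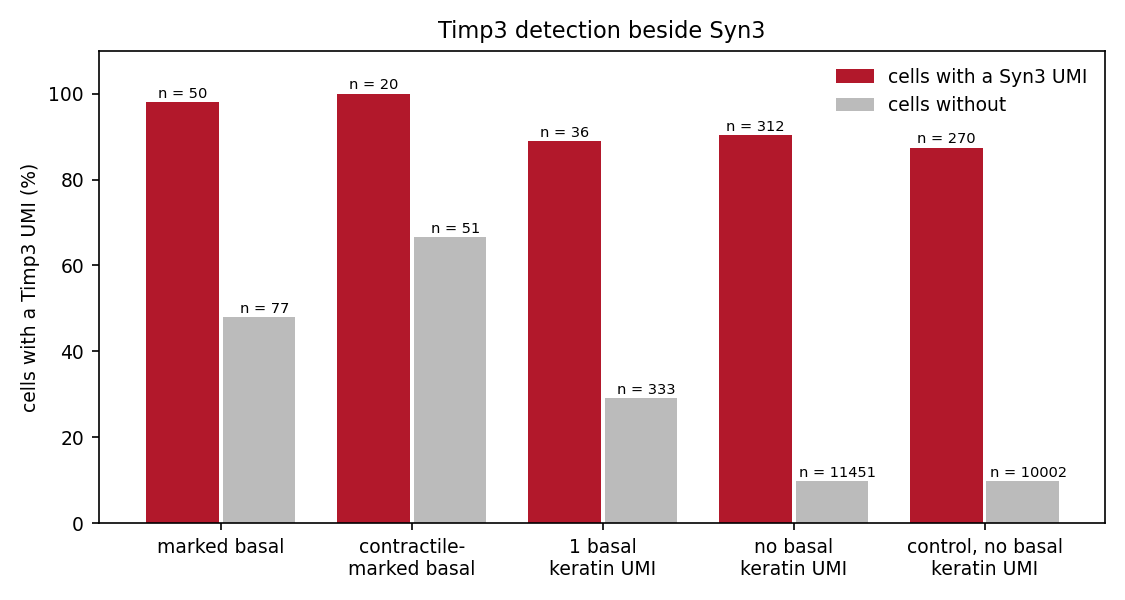
Share of cells (%) with a Timp3 UMI among cells with (red) and without (grey) a Syn3 UMI, in 5 groups of cells pooled over glands, with the number of cells above each bar. Syn3-positive cells held Timp3 in 87.4% to 100% of cases in every group, including cells without basal keratins from both genotypes.

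The number of marked basal cells per gland was the next question, since glands were sampled at an early and a late stage. At P40, marked cells made up 0.870%, 3.52%, 0.104%, 0.499%, 0.561%, 2.75% and 0.235% of the cells in replicates 1 to 7. At P90, the shares were 0.0937%, 0.990%, 1.25%, 1.87%, 0.993%, 0.544% and 0.147%. Replicates 2 and 6 at P40 stood above every P90 gland, and the remaining P40 values lay within the P90 range. Exact binomial (Clopper-Pearson) 95% intervals, which cover counting error only, ran from 2.29% to 5.15% in P40 replicate 2 and from 0.0024% to 0.521% in P90 replicate 1.

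Averaged over 7 glands a stage, the share was 1.22% ± 1.35 (SD) at P40 and 0.841% ± 0.632 (SD) at P90, a difference of -0.380 percentage points (2-sided exact permutation test, p = 0.510, adjusted p = 0.618 over 4 share tests). Without P40 replicate 2 the difference was 0.00329 points. Within batches, named as in the sample titles, it was -0.506 points in B11, 0.0450 in B12 and -1.51 in B13, with a mean of -0.657 (exact permutation within batches, p = 0.458). As a share of basal cells, marked cells made up 22.1% ± 16.6 at P40 and 25.7% ± 9.23 at P90 (exact permutation test, p = 0.618, adjusted p = 0.618). No change with stage was detectable in either measure.

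By labelled sex, the mean share was 1.41% ± 1.22 (SD, 8 female glands) and 0.527% ± 0.374 (SD, 6 male glands) (p = 0.119 by the same exact permutation test, 0.474 after adjustment). The male range of 0.0937% to 0.990% lay inside the female range of 0.147% to 3.52% but for its lower end. With both glands that went against their labels left out, the difference was 1.01 points in place of 0.881.

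In control glands the same gate passed 7 of 10743 cells, and the share averaged 0.0371% ± 0.0576 at P40 and 0.104% ± 0.0947 at P90 (SD over 6 glands each). The markers had been selected for double-mutant cells, so the excess in double mutants is a description. Of these 7 cells 4 held Coch, and Wif1, Syn3 and Krt42 were found in 1 each. At P70, 0 of 638 and 0 of 497 cells of the double-mutant CITE-seq glands passed, which allows shares of up to 0.470% and 0.604%, but these glands held only 2 and 0 basal cells. In the control CITE-seq glands, 1 of 728 and 0 of 672 cells passed, with 13 and 6 basal cells.

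**Figure D2:**
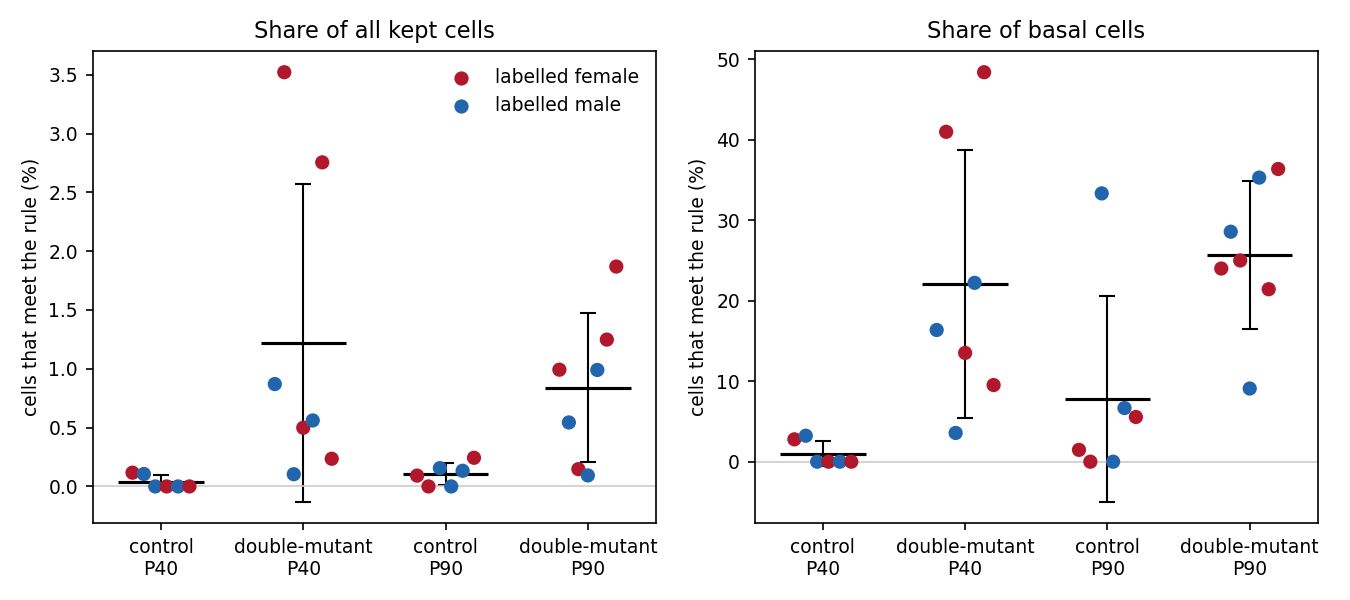
Share of cells (%) that met the gate, per gland, among all retained cells (left) and among basal cells with 2 or more Krt14 plus Krt5 UMIs (right), with the mean and SD of each genotype and stage. Double-mutant glands spread from 0.0937% to 3.52% of all cells, and the control gland at 33.3% of basal cells rests on 1 of 3 cells.

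To ask which other transcripts went with the markers, UMIs were summed per gland and population and marked basal cells were compared with unmarked basal cells, which passed the same keratin threshold but held none of the gate's other genes. The 4 glands with 10 or more cells of both were P40 replicates 2 and 6 and P90 replicates 4 and 5. In edgeR's quasi-likelihood test with the gland as a block, 13 of 517 genes (2.51%) passed an adjusted p of 0.05, 10 of them (1.93%) higher and 3 (0.58%) lower in marked cells. The marker genes had been picked in the study by clustering these same cells, so the gene differences describe the gated cells and are not independent evidence of a separate population.

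The 10 higher genes are given first, and their levels in contractile-marked cells are given further below. Sostdc1, a secreted antagonist of BMP and Wnt ligands, stood at 1987, 2298, 1782 and 1031 CPM in marked cells of P40 replicate 2, P40 replicate 6, P90 replicate 4 and P90 replicate 5, against 514, 540, 299 and 282 CPM in unmarked cells. The groups did not overlap, and the log2 fold change was 2.12 (SE 0.28, adjusted p = 0.00181). Fst, which encodes the activin and BMP antagonist follistatin, stood at 896, 565, 611 and 1915 CPM against 39.5, 120, 672 and 169 CPM in that order, higher in 3 of 4 glands (log2 fold change 2.10, SE 0.49, adjusted p = 0.0330). Cxcl14, a chemokine, stood at 557, 1129, 713 and 736 CPM against 39.5, 120, 224 and 169 CPM, with no overlap (log2 fold change 2.74, SE 0.46, adjusted p = 0.00983). Over the 11 glands with 10 or more unmarked cells, those cells held 15 UMIs of Cxcl14 and 48 of Fst. Their single-gland levels thus rest on few UMIs.

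Ctgf, a matricellular target of YAP and TGF-β signaling, stood at 1575, 1032, 1425 and 884 CPM in marked cells of the same glands against 316, 0, 149 and 395 CPM in unmarked cells, without overlap (log2 fold change 2.67, SE 0.50, adjusted p = 0.00983). Timp3 stood at 3416, 2940, 2800 and 3240 CPM against 1146, 631, 896 and 2653 CPM (1.41, SE 0.30, adjusted p = 0.0208). The P90 replicate 5 gland was the one in which unmarked cells came close to marked cells in Timp3. With Syn3 taken out of the gate, the log2 fold change of Timp3 was 1.42 (adjusted p = 0.0304, a gate chosen after seeing the data), and 12 genes passed in all. Unmarked cells still held no Syn3 UMI by construction, and the effect of that choice on Timp3 was not tested. Sparc, a matrix glycoprotein (1.69, SE 0.39), Dcn, the proteoglycan decorin (1.57, SE 0.32), Gas1, a membrane protein that binds hedgehog ligands (2.78, SE 0.67), the lipid carrier Apoe (1.54, SE 0.27) and the ubiquitin ligase subunit Skp1a (1.44, SE 0.26) were higher in 4 of 4 glands, with adjusted p from 0.00983 to 0.0393.

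The 3 lower genes were all lower in 4 of 4 glands. Krt7, a keratin of simple and luminal epithelium, stood at 72.7, 58.4, 102 and 0 CPM in marked cells of P40 replicate 2, P40 replicate 6, P90 replicate 4 and P90 replicate 5, against 435, 420, 373 and 395 CPM in unmarked cells (log2 fold change -2.69, SE 0.50, adjusted p = 0.00983). The marked cells of these 4 glands held 8 Krt7 UMIs in all. Krt18, also luminal, stood at 170, 409, 153 and 147 CPM against 870, 1021, 299 and 734 CPM (-1.61, SE 0.37, adjusted p = 0.0330). Ly6d, a surface protein of differentiating squamous cells, stood at 848, 351, 1578 and 442 CPM against 2964, 2432, 1792 and 1637 CPM, close to overlap in P90 replicate 4 (-1.73, SE 0.37, adjusted p = 0.0208).

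**Figure D3:**
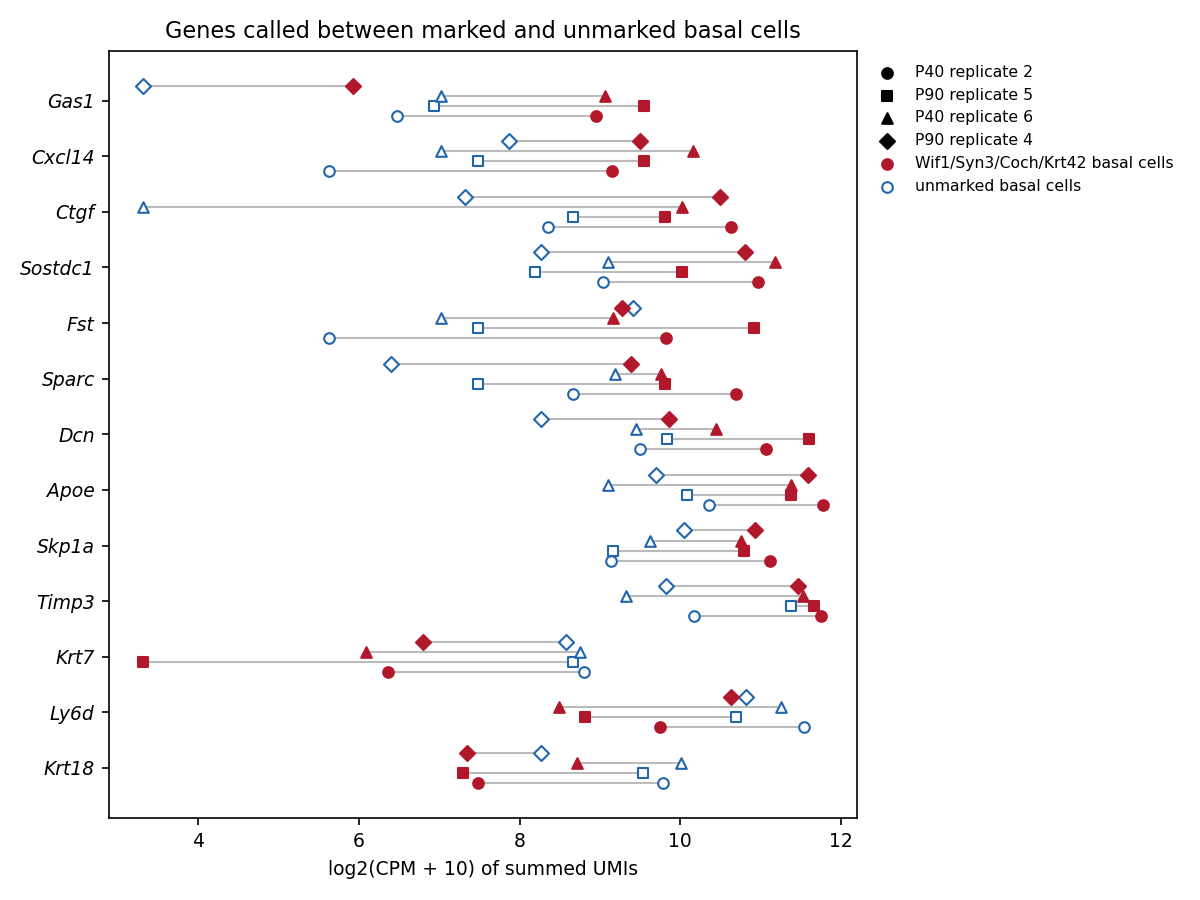
Level, as log2(CPM + 10) of summed UMIs, of the 13 genes that passed in marked (red) against unmarked (open blue) basal cells, 1 line per gland and 4 glands per gene. Points of the upper 10 genes lie to the right for marked cells except Fst in P90 replicate 4, and those of Krt7, Ly6d and Krt18 to the left.

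Relaxing the minimum to 5 cells allowed 9 glands. There, marked cells were higher in Timp3 and Dcn in 9 of 9 glands, in Sostdc1, Cxcl14 and Apoe in 8 of 9, in Ctgf, Fst, Sparc and Skp1a in 7 of 9 and in Gas1 in 6 of 9. They were lower in Krt18 in 9 of 9 glands, in Krt7 in 8 of 9 and in Ly6d in 7 of 9. The calls rested on single glands. Without P40 replicate 2, 0 genes passed in edgeR (29 at an unadjusted p under 0.05). The log2 fold changes of Sostdc1 (2.13) and Ctgf (2.92) were then close to those with all glands, and that of Apoe was larger (1.79). Gas1 was not tested there, and the other genes had smaller changes, among them Fst (1.62), Sparc (1.34), Skp1a (1.13) and Krt18 (-1.37). Without P40 replicate 6, 6 genes passed. DESeq2 called 8 genes, without Fst, Sparc, Dcn, Gas1 and Krt18. Choosing unmarked cells near marked cells in UMIs gave 23 genes, but in P90 replicate 4 the medians stayed apart, at 1241.5 UMIs in marked and 732 in chosen unmarked cells.

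By group, the tested members of each list were set beside all 517 genes, of which 1.93% were higher and 0.58% lower, with a median log2 fold change of -0.08. Luminal keratins had 2 of 3 tested genes lower (median -1.61), with Krt8 at -0.56 (SE 0.53). Of the 4 tested BMP pathway genes 1 rose, Fst, which DESeq2 did not call and which had an adjusted p of 0.0575 in edgeR with Syn3 taken out of the gate, while Id1, Id2 and Id3, transcription factors induced by BMP receptors, stood at 0.20, 0.77 and 0.46 with adjusted p from 0.186 to 0.886. Of the 15 tested basal identity genes 1 rose, Sostdc1 (median 0.09), and of the 7 tested extracellular matrix genes 1 rose, Timp3 (median 0.30). The list of EMT genes that the study chose on these samples, which is not independent evidence, had 2 of 5 tested genes higher, Ctgf and Sparc (median 1.65). DESeq2 called 1 gene in each of the luminal keratin, basal identity, extracellular matrix and EMT lists and 0 in the BMP list.

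Other lists gave few calls or none in edgeR. Of the 3 tested Wnt targets, Wls, Ccnd1 and Myc, 0 passed (median -0.36), and Axin2, the common readout of the pathway, was too low to be tested, at 62.0 CPM in marked and 27.5 CPM in unmarked cells with UMIs summed over cells. Of the 4 tested squamous genes 1 fell, Ly6d, with a median of -1.61 and 1 of the 4 above 0. In that list Krt6a, Ly6d and Sprr1a had an unadjusted p under 0.05 in edgeR, and DESeq2 called 1 gene. None of 12 contractile, 17 immediate early, 23 oxidative phosphorylation or 5 interferon genes passed. At an unadjusted p under 0.05 in edgeR there were 2 contractile genes (Myl6 and Tpm1), 2 immediate early genes (Nr4a1 and Socs3) and 0 of the Wnt targets, oxidative phosphorylation and interferon lists, and DESeq2 called 0 in each of these 5 lists.

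Markers of other cell types were measured in the same cells. Of the fibroblast list, 5 of 6 genes had a UMI in marked cells, with Pdgfra at 0. Dcn held 275 of the 318 UMIs, in 77 cells. The summed list ranged from 825 to 7658 CPM over 9 glands against 147 to 1580 CPM in unmarked cells. Dcn alone reached at most 3991 CPM in a gland, so other fibroblast genes added to the highest value. Dcn passed in edgeR and not in DESeq2. Duct markers, with 5 of 6 genes present and Foxi1 at 0, stood at a median of 442 CPM over the 9 glands (96.9 to 7059 CPM) in marked and 1067 CPM (226 to 32828 CPM) in unmarked cells, lower beside the luminal keratins. The luminal Clu list, with 3 of 3 genes present, stood at a median of 2322 CPM (0 to 50928 CPM) against 4779 CPM (1615 to 29479 CPM). Acinar transcripts were present in 5 of 6 genes, chiefly Pip, with Smr3a at 0, at 307 to 15772 CPM in marked and 586 to 50886 CPM in unmarked cells. Macrophage markers were seen in 7 of 7 genes with 47 UMIs (0 to 681 CPM against 111 to 1580 CPM), and the lymphocyte list at 1 of 5 genes, with Cd3e, Cd3g, Nkg7 and Cd7 at 0. For pericytes 2 of 4 genes were present, with Pdgfrb and Higd1b at 0, and for endothelium 5 of 6, with Cdh5 at 0. The part of Dcn, of the duct markers and of the other transcripts in the gene differences was not tested.

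In the 4 glands of the fit, ribosomal share was higher in marked cells than over all retained cells, most of which were not basal. Its median in marked cells was 16.2% in P40 replicate 2, 12.8% in P40 replicate 6, 15.5% in P90 replicate 4 and 8.59% in P90 replicate 5, against 9.78%, 4.45%, 12.7% and 4.45% over all cells of those glands. The share in unmarked basal cells was not measured, so a share common to basal cells cannot be told apart. The part of ribosomal share in the gene differences was not tested.

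Cells with different markers differed among themselves, as a description over pooled cells. Cxcl14 was detected in 69.6% of marked cells with Coch or Krt42, but in 15.6% of those with Wif1 only, 20% of those with Syn3 only and 5.04% of unmarked cells. Median depths were 1241.5, 787, 1108 and 870.5 UMIs in the same order. Sostdc1 was detected in 67.1% of Wif1 cells, 48.0% of Syn3-only cells and 20.6% of unmarked cells. Krt18 was detected in 36.0% of Syn3-only cells and 13.3% of Wif1-only cells, against 45.4% of unmarked cells. At the edge of the gate, cells with exactly 2 keratin UMIs held Cxcl14 in 44.7% and Sostdc1 in 59.6%, and the 84 cells with 1 keratin UMI held them in 29.8% and 38.1%. In unmarked basal cells of control glands, Sostdc1 was found in 11.8%, Timp3 in 8.56% and Cxcl14 in 0.535% of cells.

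Contractile-marked basal cells, which passed the keratin threshold and held Myh11, Cnn1 or Actg2, numbered 71. Marked basal cells differed from them in 20 of 517 genes in edgeR (3.87%), 6 of them (1.16%) higher and 14 (2.71%) lower. Only P40 replicate 2 held 10 or more cells of both, so the comparison runs largely through unmarked cells of the other glands, and without that gland 1 gene passed. Without P40 replicate 1 the count was 12, and without P40 replicate 3 it was 9. The list of contractile genes includes the class that the gate removed, so its direction follows from the choice of cells in part.

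Of 12 tested contractile genes 8 were lower in marked cells (median log2 fold change -3.09, against 0.04 over all genes). Of the 5 tested EMT genes of the study, 2 were lower and 0 higher (median -1.79). In P40 replicate 2, P40 replicate 6, P90 replicate 4 and P90 replicate 5, Acta2 stood at 96.9, 312, 204 and 0 CPM in marked cells. In the 3 glands with 10 or more contractile-marked cells it stood at 3368, 5164 and 10152 CPM, with no overlap. Acta2 encodes smooth muscle actin and differed by -5.97 (log2, SE 0.80, adjusted p = 0.000992). Mylk, the myosin light chain kinase (-5.00, SE 0.68), Myl9, a regulatory light chain (-4.97, SE 0.84), Cald1, caldesmon (-4.48, SE 0.67), Tagln, transgelin (-4.21, SE 1.01), and Tpm2, a tropomyosin (-3.99, SE 0.81), were also lower, with adjusted p from 0.000992 to 0.0397. Pcp4, a calmodulin regulator (-3.68), the calcium pump Atp2a2 (-2.43), the orphan receptor Nr4a1 (-2.30) and Krt7 (-2.77) were lower as well. Some genes higher than in unmarked cells were as high or higher in contractile-marked cells, with UMIs summed over cells. Sparc stood at 902 CPM in marked and 2902 CPM in contractile-marked cells, Apoe at 2679 and 5832, and Dcn at 1551 and 2433. Gas1 stood at 338 and 507, Timp3 at 2815 and 3071 and Ctgf at 1049 and 1080. Sostdc1 (1568 and 733), Skp1a (1568 and 404), Cxcl14 (694 and 366) and Fst (671 and 592) were lower in contractile-marked cells.

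The 6 higher genes were Sfn, Cldn4, Wfdc2, Id1, Ly6d and Cxcl1. Sfn, the epithelial 14-3-3 protein stratifin, was higher by 1.91 (log2, SE 0.41, adjusted p = 0.0223), and the tight junction claudin Cldn4 by 3.51 (SE 0.76, adjusted p = 0.0223). Several rested on 1 to 3 UMIs in contractile-marked cells of the fitted glands, so ratios of summed CPM are given with counting intervals. Marked cells were summed over 4 glands and contractile-marked cells over 3, with 1 gland in both, so differences between glands enter the ratios and not the intervals. The ratios were 31.0 (5.32 to 1247) for the secreted protease inhibitor Wfdc2, 47.7 (8.31 to 1906) for Id1, 17.3 (5.72 to 85.4) for Ly6d and 6.35 (1.99 to 32.4) for the chemokine Cxcl1. Over all glands the contrast was smaller. Wfdc2 stood at 446 CPM in the 127 marked and 47.0 CPM in the 71 contractile-marked cells, Id1 at 587 against 65.7 CPM, Ly6d at 733 against 103 CPM and Cxcl1 at 265 against 103 CPM. Most of these genes were higher still in unmarked basal cells. Sfn stood at 1277 CPM in unmarked and 925 CPM in marked cells, Cldn4 at 1136 and 355, and Wfdc2 at 717 and 446. Ly6d stood at 1815 and 733 CPM, and Cxcl1 at 429 and 265. Id1 was lower in unmarked cells, at 343 against 587 CPM.

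The third neighbour was Bmp/Dkk4-marked basal cells, 35 cells with the keratins and a UMI of Bmp2, Bmp4 or Dkk4 and no contractile gene. No gland held 10 of them, so this fit used 5 cells per gland, which left P40 replicate 6 (5 cells) and P90 replicate 5 (9 cells). In edgeR 19 of 481 genes passed (3.95%), 13 (2.7%) higher and 6 (1.25%) lower in marked cells, and without P40 replicate 6 1 gene passed, without P90 replicate 5 5 genes. Without P40 replicate 1, 2 or 3 or P90 replicate 4, the counts were 12, 9, 11 and 11.

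Wif1 was found in 23 of the 35 Bmp/Dkk4-marked cells (65.7%), Krt42 in 1, and Syn3 and Coch in 0, whereas in marked cells the gate itself set these shares. Ptn, the secreted growth factor pleiotrophin, was lower in marked cells, at 234 and 2062 CPM in P40 replicate 6 and P90 replicate 5 against 5730 and 7075 CPM in Bmp/Dkk4-marked cells (log2 fold change -2.72, SE 0.54, adjusted p = 0.00319). Ccnd2, a G1 cyclin (-2.48, SE 0.48), Pdgfa, a growth factor (-2.12, SE 0.57), Smoc2, a matricellular protein (-4.17, SE 0.95), the NAD-synthesis enzyme Nampt (-4.55, SE 1.09) and glutamine synthetase Glul (-2.42, SE 0.67) were lower too. Axin2 was not tested and stood at 62.0 CPM in marked and 840 CPM in Bmp/Dkk4-marked cells with UMIs summed over cells. Lef1, a nuclear partner of β-catenin, was detected in 1 of 127 marked cells.

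Several genes were at 0 UMIs in the Bmp/Dkk4-marked cells of both fitted glands, so folds are bounds against 3 UMIs over those 2 glands. Levels in marked cells were summed over the 9 glands with 5 or more of them, so differences between glands enter these folds. Timp3 was at least 17.2-fold higher in marked cells, Sostdc1 at least 10.2-fold and the taurine transporter Slc6a6 at least 4.0-fold. The transcription factor Cebpd (at least 3.06-fold), the small heat shock gene Hspb8 (at least 2.45-fold) and gelsolin (Gsn, at least 2.15-fold) followed. The matricellular gene Cyr61 and ceruloplasmin (Cp) also passed, but over all 35 Bmp/Dkk4-marked cells Cyr61 had 12 UMIs (258 CPM, against 1044 CPM in the 127 marked cells) and Cp 13 UMIs (280 against 536 CPM). Over all 35 cells Timp3 stood at 64.6 CPM against 2815 CPM in marked cells, and Sostdc1 at 129 against 1568 CPM. Hspb8 was found in 7 of the 35 cells (151 against 412 CPM). Unmarked basal cells held Cebpd, Cyr61 and Cp at 549, 1359 and 566 CPM, above marked cells at 502, 1044 and 536 CPM. Slc6a6, Hspb8 and Gsn were lower in unmarked cells, at 251, 343 and 175 CPM against 604, 412 and 338 CPM in marked cells. Ratios were built over the same glands for 2 genes with 1 and 3 UMIs in Bmp/Dkk4-marked cells, with intervals that cover counting error only. The ratio was 13.3 (2.33 to 528) for the endothelin-converting enzyme Ece1 and 10.8 (3.66 to 52.7) for the ion transport regulator Fxyd3. Over all 35 cells Fxyd3 stood at 388 CPM against 1726 CPM in marked cells.

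**Figure D4:**
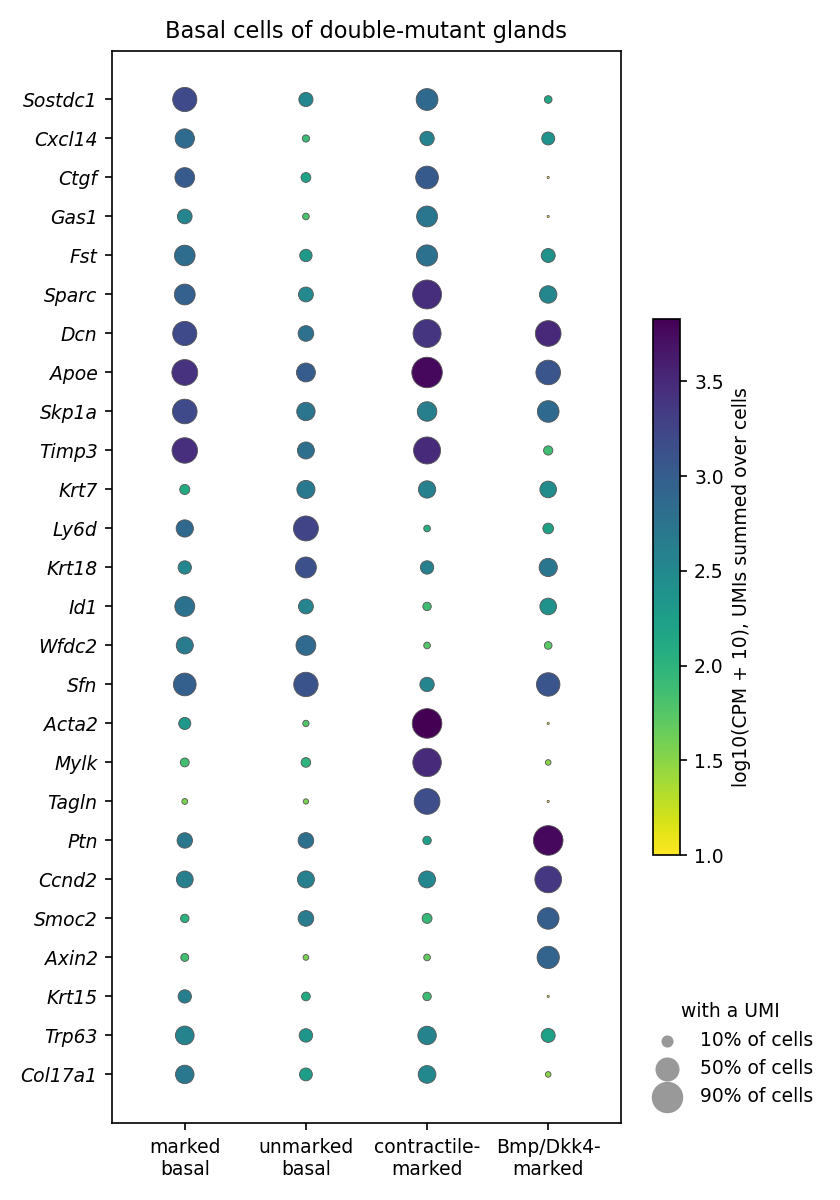
Share of cells with a UMI (dot size) and level as log10(CPM + 10) of UMIs summed over cells (color) for 26 genes in 127 marked, 238 unmarked, 71 contractile-marked and 35 Bmp/Dkk4-marked basal cells of double-mutant glands. Acta2 and Mylk stand out in contractile-marked cells, Ptn and Axin2 in Bmp/Dkk4-marked cells, and Ly6d and Krt18 in unmarked cells. Krt7 is lowest in marked cells, in both share and level.

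Stage was then tested within marked cells, with 2 glands per stage, all labelled female. Of 451 genes 0 passed in edgeR (0% of those tested), with 31 at an unadjusted p under 0.05, and DESeq2 called 0 with 22 unadjusted. Both P90 glands were among the libraries named above, 1 against its sex label and 1 with a high ribosomal share. The lowest p-values went to ribosomal pseudogenes, led by Rps10-ps1 (log2 3.49, adjusted p = 0.190). Leaving out P90 replicate 4 gave 37 genes, P40 replicate 2 gave 18 and P90 replicate 5 gave 6, but each of these fits has a stage with 1 gland, which is assumed to vary like the glands of the other stage.

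Whether stage acted differently on marked and unmarked cells was tested as an interaction over the same 4 glands. In edgeR 2 of 484 genes (0.413%) passed, 1 of them (0.207%) with a larger and 1 (0.207%) with a smaller P90 over P40 ratio in marked cells. These were Spink5, a protease inhibitor of squamous epithelium (log2 difference 11.05), which is named after its values were seen, and Wfdc18, a secreted whey acidic protein family member (-3.15), both with an adjusted p of 0.0491. Spink5 in marked cells came from 1 cell with 11 UMIs in P90 replicate 4, and in unmarked cells 61 of the 82 UMIs of P40 replicate 6 lay in 1 cell. Wfdc18 stood at 2132, 9424, 458 and 1178 CPM in marked cells of P40 replicates 2 and 6 and P90 replicates 4 and 5, against 909, 11109, 3659 and 5701 CPM in unmarked cells. Marked cells were lower in both P90 glands and in 1 of the 2 P40 glands. Leaving out P40 replicate 6 or P90 replicate 5 gave 0 genes, with 8 and 39 at an unadjusted p under 0.05, and leaving out P40 replicate 2 or P90 replicate 4 gave 11. These fits also have 1 gland at one of the stages. With Syn3 taken out of the gate 8 genes passed, Spink5 and Wfdc18 among them.

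The Cre reporter was read last. EYFP was detected in 17 of 127 marked cells (13.4%), 7.56% of unmarked and 6.41% of double-mutant cells without these keratins, against 35.3% of unmarked control basal cells and 16.9% of control cells without the keratins. Median depths were 1056, 870.5, 1188, 1091 and 2134 UMIs in the same order, so unmarked control basal cells had a higher share than marked cells at a like depth, whereas control cells without the keratins were deeper. In double mutants, EYFP was detected in 13 of 71 contractile-marked cells (18.3%, median depth 1135 UMIs). It was detected in 7 of 35 Bmp/Dkk4-marked cells (20%, median depth 938 UMIs). Both shares were above that of marked cells. All these shares are pooled over glands with no test, and free EYFP RNA can enter any droplet. Proliferation genes were sparse, with Mki67 in 4 and Top2a in 8 of the 127 cells.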

How the data were processed

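Drop-seq UMI tables of 26 glands, CITE-seq tables of 4 glands and 1 bulk RNA-seq count table were used as deposited. The authors had aligned reads, collapsed UMIs with the Drop-seq tools on GENCODE vM7 with Cre and EYFP sequences added, and selected barcodes by the knee of the cumulative count curve, so the deposited single-cell values are raw UMI counts per gene and barcode. For the bulk table they had counted reads per gene, giving raw counts. The submitters' processing notes name STAR, featureCounts and mm10, without versions. Whether strand was used in counting is not given in the sources used here.

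Groups, stage, sex and replicate numbers were taken from the sample labels. The marked cells, the gene lists and the comparisons were chosen with earlier results of these data known. Cells with at least 100 genes and under 15% mitochondrial UMIs were retained. Shares of cells were compared over glands with 2-sided exact permutation tests and Benjamini-Hochberg adjustment over 4 tests. For genes, UMIs were summed for each population of a gland that held 10 or more cells (5 for Bmp/Dkk4-marked cells, since no gland held 10) and tested with edgeR 4.0.16 (TMM scaling, expression filter, quasi-likelihood F test, gland as block, Benjamini-Hochberg adjusted p under 0.05) in R 4.3.3. The stage test within marked cells had no sex term, because all 4 glands are labelled female. The 12 genes of the gate entered the scaling but were not tested. CPM values are UMIs per 1000000 summed UMIs. P-values of the share tests and of the stage test within marked cells measure spread between glands. In fits with a gland block they measure the spread left after gland differences, estimated jointly over the populations in the fit. With summed counts, fewer positive cells and less RNA per positive cell cannot be told apart.

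Named genes were the 10 largest rises and falls in each comparison among called genes found in at least 5% of cells on either side, plus counts and up to 5 examples per list, and Spink5 was added after its values were seen. Alternatives were DESeq2 1.42.0, RLE scaling, no expression filter, other minimum cell numbers, thinning each cell to 500 or 300 UMIs, a gate with 2 or more marker UMIs, cell number as a covariate, models without the gland block, unmarked cells matched on UMIs, and leaving out libraries. The gate without Syn3, matching with 5 cells, and leaving out all 3 named libraries were chosen after seeing the data. In simulated data for marked against unmarked cells (456 genes), 28 of 59 genes changed 2-fold, 51 of 51 changed 4-fold and 61 of 61 changed 8-fold were called, as were 5 of 285 unchanged genes. The simulation gave all genes 1 common spread and all glands 1 expression profile, so these rates need not hold for the real data. Replicate numbers did not pair P40 with P90 glands (r = -0.0906 over 7 pairs). Python 3.11.15, numpy 2.4.6, scipy 1.17.1, pandas 2.3.3 and matplotlib 3.10.9 were used.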

Additional observations from a re-analysis of the deposited data

Results flagged for a closer look

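The P90 over P40 ratio differed between marked and unmarked basal cells for Spink5 (log2 difference 11.05) and Wfdc18 (-3.15), each with an adjusted p of 0.0491 in the interaction test of edgeR over 4 glands. In marked cells the Spink5 signal was 1 cell of P90 replicate 4, and for Wfdc18 single cells held 77 of 88 UMIs in P40 replicate 2 and 211 of 484 in P40 replicate 6.

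In the bulk RNA-seq of whole glands, which no comparison of marked cells used, marker transcripts were above the control library. Wif1 stood at 4.03 CPM in the double-mutant library (140 counts) against 0.464 CPM (16 counts) in the control. Syn3 stood at 0.374 CPM against 0.0579 CPM (13 and 2 counts), and Krt42 at 0.489 CPM (17 counts) with 0 counts in the control. Coch ran the other way, at 4.58 against 7.68 CPM. With 1 library per genotype there is no replicate check, and the double-mutant mouse was sampled at P100 and the control at P70, so genotype and age cannot be told apart.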

How the results depend on the processing

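The share by stage reversed with basal cells as the denominator (3.6 points) and with cells thinned to 300 UMIs (0.216), and leaving out single glands gave -0.566 to 0.00329. With replicate numbers as a paired block the difference was -0.380. As a share of basal cells, the stage difference changed direction with thinning, from 3.6 points to -8.40 at 500 UMIs and 12.1 at 300. The share by sex passed no test and kept its direction, but thinning to 500 or 300 UMIs cut the difference from 0.881 to 0.238 and 0.325 points, and leaving out P40 replicate 2 to 0.579. As a share of basal cells it went from 8.21 to 0.192 points at 500 UMIs and to 12.8 at 300.

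Counts of genes moved more. Against unmarked cells, DESeq2 gave 8 genes, leaving out both B11 libraries with discordant sex 8, UMI matching 23 (incomplete in P90 replicate 4), leaving out the 3 doubted libraries 5, and leaving out single glands 0 to 14. Against contractile-marked cells, no expression filter gave 13, a minimum of 5 cells 34, 2 or more marker UMIs 4, thinning 3, leaving out both B11 libraries 11, and leaving out single glands 1 to 22. Against Bmp/Dkk4-marked cells, no block with cell number as a term gave 8, the gland block with cell number 4, no filter 6, thinning 1, leaving out both B11 libraries 6, leaving out P90 replicate 4 11, and leaving out single glands 1 to 23. By stage, leaving out both B11 libraries gave 6, P90 replicate 4 37, a batch term with 5 cells 1 (added later), and single glands 0 to 37. For the interaction, no filter gave 4, the gate without Syn3 8 (added later), DESeq2 1, leaving out both B11 libraries 0 (39 unadjusted in edgeR), P90 replicate 4 11, no replicate block 0 (8 unadjusted), and single glands 0 to 11. The causes were not tested. Other fits without the gland block changed no count by over 1.5 times.

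A minimum of 20 cells, a stage fit with a batch term at 10 cells, a stage fit with a replicate block and a stage fit with 2 or more marker UMIs could not be fitted. Depth limits the rest: 18 marked cells held under 500 UMIs, and simulated 2-fold changes were called in 47.5% of cases.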

Other observations

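In bulk RNA-seq, Krt15 had 8 counts in the P100 double-mutant and 160 in the P70 control library, and Axin2 had 386 and 52, whereas within double-mutant single cells Krt15 stood at 406 CPM in marked and 120 CPM in unmarked basal cells. Krt75, a hair follicle keratin, was found in 18 of 127 marked cells (180 CPM of summed UMIs against 27.5 CPM in unmarked cells) and at 0 UMIs in unmarked and contractile-marked basal cells of control glands. Lgr6, a receptor for R-spondins, was detected in 27 marked cells and Bambi, a BMP decoy receptor, in 24. Periostin (Postn), a matrix protein, had a log2 fold change of 2.38 (SE 0.72) in marked over unmarked cells and the imprinted RNA H19 one of -2.43 (SE 0.62), with adjusted p of 0.123 and 0.0770 in edgeR, so neither passed.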
